A study of Mus musculus with 8 samples.

Results

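Complement is a defence system of plasma proteins and cell-surface receptors, and 8 of its genes are described here across macrophages given dimethyl itaconate, with and without the transcription factor NRF2. The members were taken by name from the 22165 genes of the deposited count table: C1qa, C1qb and C1qc, C3, Cfb, Cfp, C3ar1 and C5ar1. All 8 had counts, and 7 of them passed the filter on low counts that left 11079 genes to test. Cfb did not pass.

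The series holds 8 libraries of poly(A) RNA read at 3′ ends. Their source was macrophages grown from C57BL/6 bone marrow for 7 days with M-CSF. The groups were Nrf2-/- (KO) cells given 250 µM dimethyl itaconate (DI) for 12 h, untreated KO cells, wild-type (WT) cells given the same dose of DI for the same time, and untreated WT cells, with 2 libraries in each. DI is an electrophilic ester of itaconate, the metabolite that macrophages make with the enzyme ACOD1. The KO mice came from a commercial breeder, and Nrf2 is the gene Nfe2l2. The ages of the mice, and whether libraries of a group came from separate mice or cultures, are unknown from the sources used here, so each p-value reflects only library-to-library spread, which may be technical.

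C1q starts the classical pathway. It is built from the chains encoded by C1qa, C1qb and C1qc, binds antibody complexes and dying cells, and is made mainly by macrophages rather than by the liver. C3 is the protein at which all pathways meet, factor B (Cfb) forms the alternative pathway's C3 convertase with it, and properdin (Cfp) steadies that convertase. C3a and C5a, the fragments released on activation, act through the receptors encoded by C3ar1 and C5ar1 on myeloid cells.

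The members lie on mm10 (GRCm38) chromosomes as annotated in GENCODE. C1qb (chr4:136880129-136886187), C1qc (chr4:136889804-136893065) and C1qa (chr4:136895917-136898803) stand side by side on the minus strand within 18675 bases, with gaps of 3616 bases between C1qb and C1qc and 2851 bases between C1qc and C1qa. C3 (chr17:57203970-57228136), Cfb (chr17:34856374-34862518), C3ar1 (chr6:122847138-122856161), C5ar1 (chr7:16246743-16259540) and Cfp (chrX:20925454-20931555) are also on minus strands.

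RefSeq's promoter table (GRCm38.p6) held 6 of the 8 members, all but C1qa and Cfb. The 250 bases before the annotated start were searched on both strands for the core of the antioxidant response element to which NRF2 binds (TGACNNNGC), a MAF site (TGCTGAC), a C/EBP site (TTNNGCAA), a PU.1 site (GAGGAAGT), an interferon-stimulated response element (GAAANNGAA) and NF-κB, none of which overlapped another in these promoters. The windows of C1qb, Cfp and C3 are shown because they hold the matches that relate to the knocked-out factor, or, for C3, to the C/EBP factors known to bind its human promoter. Capitals mark the match.
C1qb, 250 bases before the start, minus strand (chr4:136886201-136886450): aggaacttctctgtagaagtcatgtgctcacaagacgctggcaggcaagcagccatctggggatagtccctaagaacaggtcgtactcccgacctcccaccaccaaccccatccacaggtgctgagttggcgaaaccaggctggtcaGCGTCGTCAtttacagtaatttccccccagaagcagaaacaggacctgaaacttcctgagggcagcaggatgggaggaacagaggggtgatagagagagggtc
Cfp, 250 bases before the start, minus strand (chrX:20931556-20931805): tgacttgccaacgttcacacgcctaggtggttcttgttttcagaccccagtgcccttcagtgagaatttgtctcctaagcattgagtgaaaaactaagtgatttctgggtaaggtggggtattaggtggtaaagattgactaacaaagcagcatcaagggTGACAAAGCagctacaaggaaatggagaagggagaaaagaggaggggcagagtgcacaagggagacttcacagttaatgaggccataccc
C3, 250 bases before the start, minus strand (chr17:57228137-57228386): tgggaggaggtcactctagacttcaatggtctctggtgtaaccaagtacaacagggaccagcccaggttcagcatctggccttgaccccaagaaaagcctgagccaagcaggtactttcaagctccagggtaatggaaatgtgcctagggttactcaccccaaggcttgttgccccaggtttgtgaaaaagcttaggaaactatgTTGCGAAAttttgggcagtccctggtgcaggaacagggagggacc
The antioxidant response element core matched in C1qb (GCGTCGTCA, on the opposite strand, starting 103 bases before the start) and in Cfp (TGACAAAGC, starting 90 bases before it). It was present in 10.2% of all 32851 promoters of the table. C3 held a C/EBP match (TTGCGAAA, 45 bases before the start), a motif found in 9.56% of promoters. C1qc held a PU.1 match (ACTTCCTC, 195 bases before its RefSeq start), against 2.44% of promoters, and an NF-κB match, against 7.25%. C5ar1 held the interferon-stimulated motif, against 7.13% of promoters, and no member held the MAF site, which was in 3.81%. The windows of C1qc and C5ar1 overlap the GENCODE gene by 151 and 202 bases, since the 2 annotations place the start differently. A match is a match of letters and was not tested as a binding site.

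Library totals ranged from 5554288 to 15680671 counts, and 12418 to 13481 genes had at least 1 count in a library. Nfe2l2 had 67.7 and 88.1 CPM (counts scaled to library size by TMM) in KO DI cells, 40.2 and 53.0 CPM in untreated KO cells, 299 and 416 CPM in WT DI cells, and 230 and 454 CPM in untreated WT cells, lower in each KO library than in each WT library. All 10 macrophage markers were present. Their summed level was 4367 to 5019 CPM in KO DI, 6068 to 6182 CPM in untreated KO, 4513 to 5216 CPM in WT DI and 4993 to 5088 CPM in untreated WT libraries. Summed lymphocyte markers reached at most 2.52 CPM, and 3 of 4 erythroid markers were at 0 in all libraries. Replicate libraries differed beyond counting error. In these bulk libraries, fewer cells of a type and less RNA per cell cannot be told apart.

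**Figure D1:**
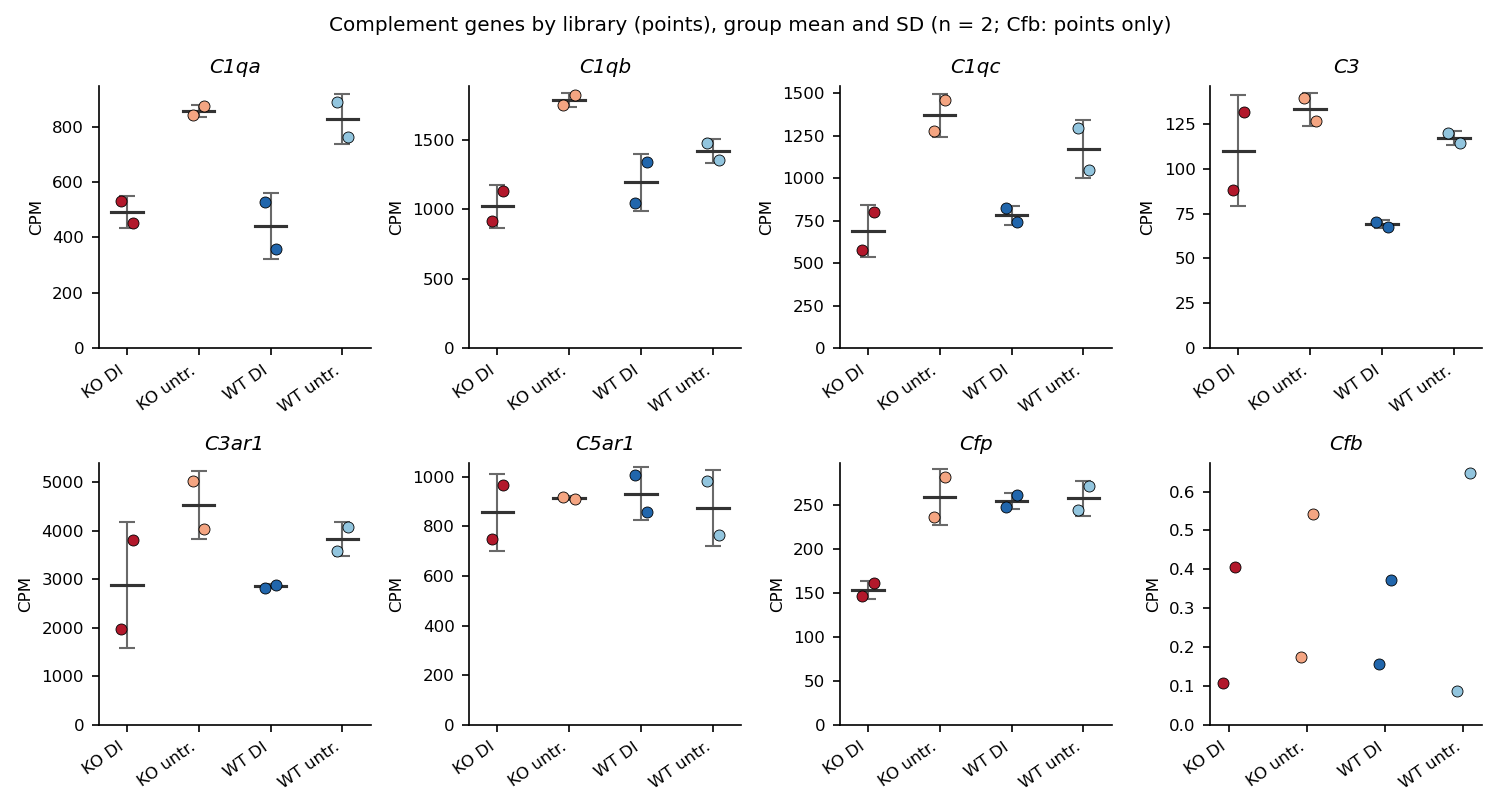
Level of each complement gene (CPM, linear axis from 0) in every library. Points are libraries, bars the group mean and SD (n = 2; none drawn for Cfb). For C1qa, C1qb and C1qc each DI library lies below each untreated library of either genotype, while C5ar1 overlaps between groups and Cfp is lowest in both KO DI libraries.

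Averaged over genotypes, the 3 C1q chains were lower in DI-treated than in untreated macrophages. C1qa fell 1.81-fold, C1qc 1.73-fold and C1qb 1.44-fold. The joint level of the 3 genes was 2201 ± 250 CPM in KO DI against 4012 ± 199 CPM in untreated KO cells, and 2416 ± 28.5 CPM in WT DI against 3414 ± 349 CPM in untreated WT cells (SD, n = 2 each). Within a genotype the test called C1qb, C1qc and Cfp lower with DI in KO, and C1qa and C3 lower in WT. C1qa narrowly missed the threshold in KO (edgeR quasi-likelihood adjusted p = 0.0575), with a log2 change of -0.80 there and -0.90 in WT. No difference between the genotypes' DI responses passed the test for any member. C5ar1 did not pass in any comparison.

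C1qa, the A chain, had 533 and 452 CPM in KO DI libraries against 843 and 874 CPM in untreated KO libraries. In WT it had 527 and 358 CPM with DI against 891 and 764 CPM untreated. The lowest untreated library therefore stood above the highest DI library. C1qa fell by 0.90 ± 0.24 on the log2 scale in WT (SE, adjusted p = 0.0246) and had a log2 change of -0.80 ± 0.24 in KO (adjusted p = 0.0575). The KO change was called in 7 of 17 alternatives, DESeq2 among them (adjusted p = 0.0199), and missed in 10. With only the compared libraries the WT change was -0.89 and lost its call (adjusted p = 0.0569). The WT call was lost without KO untreated replicate 1, either untreated WT library or WT DI replicate 2 (-1.01 to -0.62, adjusted p 0.0562 to 0.127). Adjusted p-values are from the quasi-likelihood test of edgeR, adjusted by Benjamini-Hochberg over all tested genes, unless DESeq2 is named, and a gene was called at an adjusted p under 0.05.

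C1qb, the B chain, had 912 and 1128 CPM in KO DI libraries against 1749 and 1822 CPM in untreated KO libraries. In WT it had 1047 and 1337 CPM with DI against 1478 and 1355 CPM untreated, so that the nearest DI and untreated libraries of WT differed by little. It fell by 0.81 ± 0.22 log2 in KO (adjusted p = 0.0449). That call was lost without any library of the KO groups or either untreated WT library (-0.97 to -0.66, adjusted p 0.0601 to 0.235). In WT the log2 change was -0.25 ± 0.22 (95% interval -0.73 to 0.23, adjusted p = 0.485).

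C1qc, the C chain, had 579 and 799 CPM in KO DI libraries against 1280 and 1457 CPM in untreated KO libraries. WT libraries had 822 and 741 CPM with DI against 1292 and 1049 CPM untreated. No DI library reached an untreated library. It fell by 0.99 ± 0.24 log2 in KO (adjusted p = 0.0247), and in WT its log2 change was -0.58 ± 0.23 (adjusted p = 0.112). The KO call was lost without either untreated KO library or KO DI replicate 1 (-1.08 to -0.78, adjusted p 0.12 to 0.18).

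A contrast that averaged both genotypes in the same fit was added after the data were seen. In it C1qa fell by 0.85 ± 0.17 log2 (adjusted p = 0.00532), C1qc by 0.79 ± 0.17 (adjusted p = 0.00748) and C1qb by 0.53 ± 0.16 (adjusted p = 0.0399). Each was lower in 4 of 4 DI libraries than in all 4 untreated ones. The share of all tested genes separated in this way was not counted. Of all tested genes, 8.54% were called lower and 6.77% higher in this contrast, and 3 of the 7 tested members were called lower and 0 higher. The calls of C1qa and C1qc were kept in all 16 alternatives, with log2 changes of -0.98 to -0.71 and of -0.91 to -0.68. The call of C1qb was lost in 6 of the fits that left out 1 library, those without either untreated library of each genotype, without KO DI replicate 1 or without WT DI replicate 1, with log2 changes of -0.56 to -0.42 and adjusted p of 0.071 to 0.142.

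The ratios of the chains' counts are given to compare their responses. C1qa counts were 0.585 and 0.400 times C1qb counts in KO DI, 0.482 and 0.480 times in untreated KO, 0.503 and 0.268 times in WT DI, and 0.603 and 0.564 times in untreated WT libraries. The DI libraries spread more widely than the untreated ones, between 0.268 and 0.585 against 0.480 and 0.603. Over 4 DI and 4 untreated libraries the log2 ratio differed by -0.33 for C1qa to C1qb (p = 0.343, adjusted p = 0.514), by -0.26 for C1qc to C1qb (p = 0.0857, adjusted p = 0.257) and by -0.07 for C1qa to C1qc (p = 0.743), in two-sided exact permutation tests of 3 ratios, in which the smallest p possible was 0.0286. A lone differing ratio could not have passed after adjustment over 3, since its adjusted p could not go below 0.0857. The permutations ran over both genotypes together, so a difference in ratio between genotypes adds to their spread. Across the 8 libraries, log2 CPM of C1qb and C1qc correlated at r = 0.909, C1qa and C1qc at 0.842, and C1qa and C1qb at 0.646. These values describe libraries that share the groups' treatment.

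**Figure D2:**
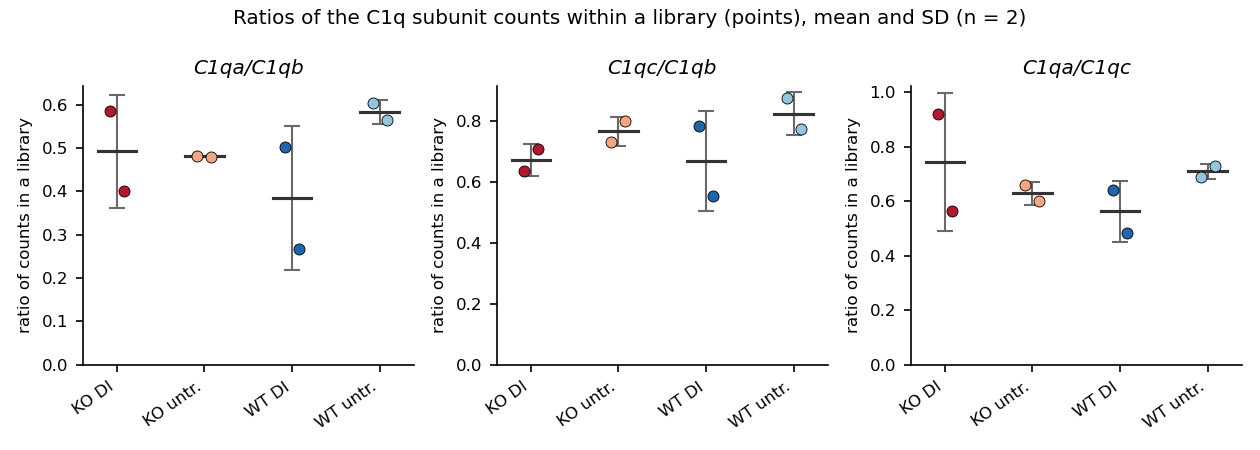
Ratio of the counts of C1q chain genes within a library (linear axis from 0), for C1qa to C1qb, C1qc to C1qb and C1qa to C1qc. Points are libraries, bars the mean and SD of a group (n = 2). The C1qa to C1qb ratio runs between 0.268 and 0.585 in DI libraries and between 0.480 and 0.603 in untreated ones, which overlap.

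C3, the central component, had 88.4 and 132 CPM in KO DI libraries against 140 and 127 CPM in untreated KO libraries. In WT it had 70.5 and 67.4 CPM with DI against 120 and 114 CPM untreated. The WT groups were far apart relative to their spread, and the KO groups overlapped. C3 fell by 0.76 ± 0.24 log2 in WT (adjusted p = 0.0476), while its log2 change in KO was -0.27 ± 0.23 (adjusted p = 0.495). The interaction was 0.49 ± 0.33 (95% interval -0.23 to 1.21, adjusted p = 0.365). The WT call stood close to the threshold and was lost in 10 of 17 alternatives, with an adjusted p of up to 0.168. Among these were the fits without any of the 4 untreated libraries or either WT DI library (-0.80 to -0.70, adjusted p 0.0762 to 0.155). In DI-treated cells each KO library exceeded each WT library, with a log2 difference of 0.68 ± 0.24 that missed the threshold in edgeR (adjusted p = 0.0599) and passed it in DESeq2 (adjusted p = 0.041) and in edgeR without KO DI replicate 1 (0.94, adjusted p = 0.0318).

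Cfp, which encodes properdin, had 146 and 161 CPM in KO DI libraries against 237 and 282 CPM in untreated KO libraries. Levels in WT were 248 and 261 CPM with DI against 244 and 272 CPM untreated. Both KO DI libraries were thus below the other 6, which overlapped. Cfp fell by 0.76 ± 0.21 log2 with DI in KO (adjusted p = 0.047), and its log2 change in WT was -0.02 ± 0.21 (95% interval -0.47 to 0.44, adjusted p = 0.964). Between DI-treated groups it was lower in KO than in WT by -0.73 ± 0.21 log2 (adjusted p = 0.0299). The interaction in the edgeR fit of 8 libraries was -0.74 ± 0.30, the only one among the members with an unadjusted p under 0.05, and did not pass after adjustment (adjusted p = 0.142). Leaving out any library of the 2 KO groups, or either untreated WT library, took the KO call above the threshold, with log2 changes of -0.87 to -0.62 and adjusted p of 0.0593 to 0.298. The call between the DI-treated groups was likewise lost without any library of those groups or of the untreated KO group (-0.80 to -0.66, adjusted p 0.0508 to 0.137).

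Cfb, which encodes factor B, had 1 and 4 counts in KO DI, 1 and 5 in untreated KO, 1 and 4 in WT DI and 1 and 10 in untreated WT libraries. Its group totals of 5, 6, 5 and 11 counts allow no statement on a change. In a fit without the filter on low counts the log2 change with DI was -0.54 in KO (95% interval -3.41 to 2.32) and -0.42 in WT (-3.10 to 2.27). A further limit is its annotation. Of the 2825 exonic bases of Cfb, 2246 (79.5%) are also exons of the readthrough gene Gm20547 on the same strand, which spans Cfb and its neighbour C2, 85 bases away, and which had 0 counts in all libraries. The sources used here do not say how reads in shared exons were counted, so a low count of Cfb cannot be read as low expression. No other member shares an exonic base with another annotated gene.

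C3ar1, the C3a receptor gene, had 1967 and 3796 CPM in KO DI libraries against 5016 and 4034 CPM in untreated KO libraries. WT libraries had 2821 and 2880 CPM with DI against 3582 and 4073 CPM untreated. Within each genotype the DI libraries lay below the untreated ones, but the KO DI libraries differed 1.93-fold from each other. The log2 change was -0.65 ± 0.29 in KO (adjusted p = 0.172) and -0.43 ± 0.28 in WT (adjusted p = 0.339), and neither passed. Without KO DI replicate 2 the KO change became -1.20 (adjusted p = 0.0289), and without KO DI replicate 1 it became -0.25 (adjusted p = 0.673).

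C5ar1, the C5a receptor gene, had 747 and 966 CPM in KO DI libraries against 919 and 910 CPM in untreated KO libraries. Levels in WT were 1009 and 856 CPM with DI against 982 and 765 CPM untreated. The groups overlapped in every comparison. Averaged over genotypes, the 95% interval of the log2 change with DI ran between -0.35 and 0.35. Its correlation with the other tested members over the 8 libraries was 0.0837 to 0.384.

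**Figure D3:**
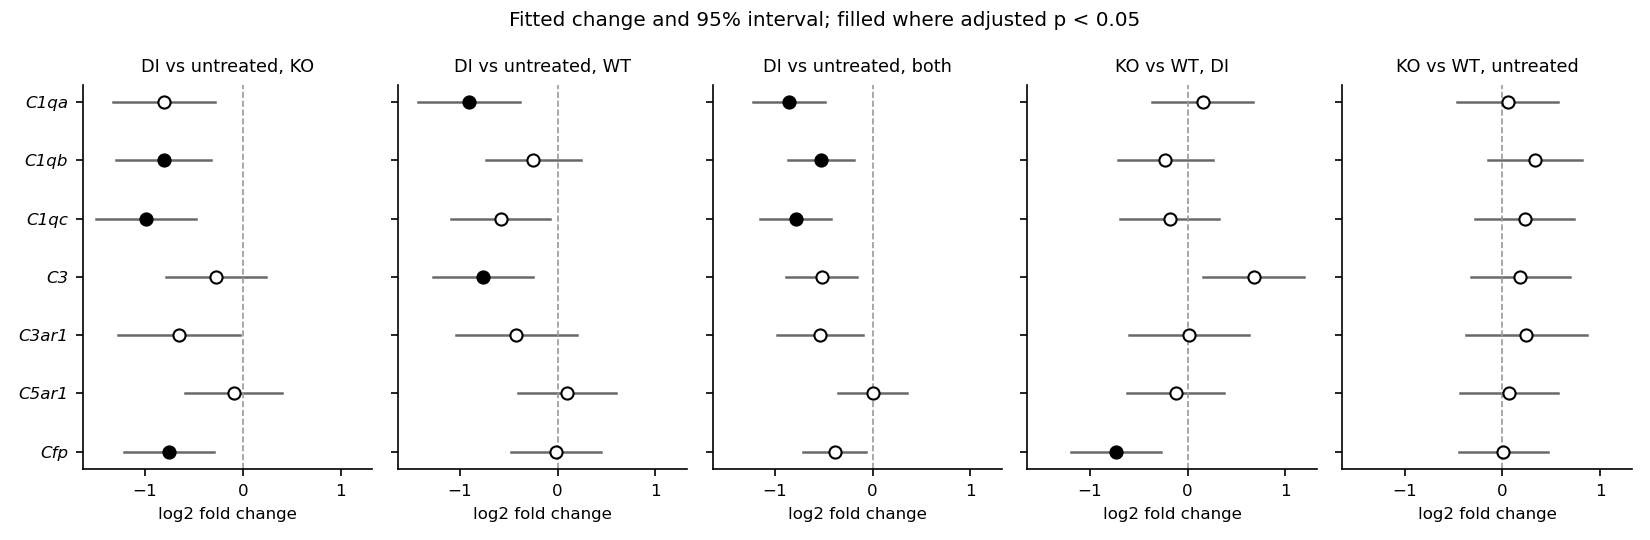
Fitted log2 fold change (x axis, linear in log2) of the 7 tested members in 5 comparisons, with 95% intervals. Points are filled where edgeR's adjusted p was under 0.05. The C1q genes lie left of 0 in each comparison of DI with untreated cells, C5ar1 stays near 0, and Cfp is the filled point among KO against WT with DI.

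Counted over the members, 0 rose and 3 of 7 fell with DI in KO cells (C1qb, C1qc and Cfp), where 4.49% of all tested genes were called higher and 4% lower. In WT cells 0 rose and 2 of 7 fell (C1qa and C3), where 6.51% of genes were called higher and 8.68% lower. The median log2 change of the 7 tested members was -0.76 in KO, where that of all tested genes was 0.0046, and -0.43 in WT, where that of all genes was -0.017. Calls in both DI comparisons were lost when single libraries were left out, and in these fits fewer of all tested genes were called as well. Where its call was lost, the log2 change stayed between -1.08 and -0.78 for C1qc in KO. For C1qa in WT it stayed between -1.01 and -0.62. The KO calls were all lost without KO untreated replicate 1, KO untreated replicate 2 or KO DI replicate 1, and the WT calls without KO untreated replicate 1, WT untreated replicate 1, WT untreated replicate 2 or WT DI replicate 2. Of 10 macrophage markers, 3 were called lower and 0 higher with DI in KO (Adgre1, Csf1r and Cd14). Their sum was 4367 to 5019 CPM in KO DI against 6068 to 6182 CPM in untreated KO libraries. In WT 4 were called lower and 0 higher (Fcgr1, Mrc1, Itgam and Cd14). The WT sums overlapped, with 4513 to 5216 CPM in DI against 4993 to 5088 CPM in untreated libraries. Summed neutrophil markers were 247 to 303 CPM in KO DI against 267 to 309 CPM in untreated KO libraries, and 250 to 323 CPM in WT DI against 373 to 383 CPM in untreated WT libraries. Their part in the result was not tested.

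In untreated cells 0 of 7 members were called between KO and WT in either direction (0.0812% of genes higher, 0.524% lower). DESeq2 also called 0 members, and 0 had an unadjusted p under 0.05. C1qb was higher in both untreated KO libraries than in both WT ones, with a log2 difference of 0.33 ± 0.22 (95% interval -0.15 to 0.82, adjusted p = 0.669). In DI-treated cells Cfp was called lower and 0 members higher in KO than in WT, where 11.4% of genes were called higher and 9.74% lower. The interaction of genotype and DI called 0 of 7 members in edgeR (4.96% of genes higher, 2.59% lower) and 0 in DESeq2. In edgeR 1 of the 7 had an unadjusted p under 0.05, and the share of all tested genes at that threshold was not counted.

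A list of 48 further complement genes, drawn up with earlier results of these data known, gave the surroundings. The table held 47 of them, of which 23 could be tested and 13 had no count in any library, among them the mannose-binding lectins Mbl1 and Mbl2, Masp2, factor D (Cfd), C6, C7 and C8b. A count of 0 in a group allows a level of up to 0.201 CPM in the shallowest group (3 counts over the group). Of the other 11 untested genes, 7 had fewer than 10 counts in all libraries together. Of the 23, 0 rose and 0 fell with DI in KO cells by edgeR (4.49% and 4% of all tested genes). An unadjusted p under 0.05 was found for 4, and the share of all tested genes at that threshold was not counted. In WT cells 3 rose and 5 fell with DI (6.51% and 8.68% of all tested genes). Between DI-treated groups 2 were higher and 8 lower in KO than in WT (11.4% and 9.74% of all tested genes). Among the 8 was Vsig4, which passed the filter on low counts only through WT libraries.

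Among components, C1ra, a protease of the C1 complex, had 10 and 10 counts in KO DI, 13 and 16 in untreated KO, 3 and 3 in WT DI and 41 and 32 in untreated WT libraries. It fell by 2.93 ± 0.64 log2 with DI in WT (adjusted p = 0.00919), a call lost without WT untreated replicate 1 or WT DI replicate 2 (-2.51 to -2.50, adjusted p 0.0635 to 0.0847). C4b, the C4 component, had 19 and 15 counts in KO DI, 18 and 19 in untreated KO, 10 and 5 in WT DI and 36 and 69 in untreated WT libraries, and fell by 2.03 ± 0.57 log2 with DI in WT (adjusted p = 0.0308). The C4b call was lost without either untreated WT library or WT DI replicate 2 (-2.25 to -1.25, adjusted p 0.0549 to 0.209). Beside these falls, summed stromal markers were 103 to 114 CPM in WT DI and 87.2 to 130 CPM in untreated WT libraries, which overlap. Colec12, a collectin scavenger receptor, rose with DI in WT to 24.1 ± 3.93 CPM, against 10.4 ± 0.294 CPM untreated (SD, n = 2 each, adjusted p = 0.00662), and had 10.2 ± 1.10 CPM in KO DI against 10.6 ± 2.29 CPM in untreated KO cells. It was lower in KO than in WT among DI-treated cells (log2 -1.25 ± 0.25, adjusted p = 0.00508). The ficolin gene Fcna was lower there too (-1.64 ± 0.39, adjusted p = 0.0112). C9 was higher in KO, with 11 and 19 counts in KO DI against 1 and 3 counts in WT DI libraries (2.68 ± 0.81, adjusted p = 0.0352). The rise of Colec12 missed the threshold without WT untreated replicate 2 (1.19, adjusted p = 0.0526), the Fcna call without KO DI replicate 1 (-1.61, adjusted p = 0.0607), and the C9 call without any DI library or KO untreated replicate 1 (2.28 to 3.19, adjusted p 0.0535 to 0.148).

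Among regulators, Cd55, the decay-accelerating factor that dismantles C3 convertases, had 105 and 132 counts in KO DI, 101 and 199 in untreated KO, 24 and 15 in WT DI and 165 and 193 in untreated WT libraries. It fell by 2.47 ± 0.38 log2 with DI in WT (adjusted p = 0.0011), had a log2 change of -0.68 ± 0.32 in KO that did not pass, and was higher in KO than in WT among DI-treated cells (2.34 ± 0.38, adjusted p = 0.00138). Without WT DI replicate 2 these values were -1.80 in WT and 1.69 between the DI-treated genotypes, and without WT DI replicate 1 they were -3.22 and 3.10, and both calls held. Serping1, the C1 inhibitor gene, was lower in KO than in WT with DI (-2.35 ± 0.56, adjusted p = 0.0117), a call lost without KO DI replicate 1 (-1.87, adjusted p = 0.0852). Stromal markers moved the same way beside Serping1: the sum of 6 was 43.2 to 43.8 CPM in KO DI and 46.6 to 47.8 CPM in untreated KO libraries, against 103 to 114 CPM in WT DI and 87.2 to 130 CPM in untreated WT libraries, with Lum at 0 throughout. Col1a1, Col1a2, Col3a1 and Dcn were called lower in KO with DI. Their part in the result was not tested.

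Among receptors, Itgam and Itgb2 encode the chains of complement receptor 3, which binds iC3b, and they moved in opposite directions with DI in WT. Itgam fell by 1.18 ± 0.26 log2 (adjusted p = 0.00905) and Itgb2, the chain shared with other leukocyte integrins, rose by 0.89 ± 0.22 (adjusted p = 0.0169). In KO the log2 changes were -0.52 for Itgam and 0.04 for Itgb2, and neither passed. Itgb2 was lower in KO than in WT with DI (-1.20 ± 0.22, adjusted p = 0.00275), as was Itgax, which encodes the other chain of complement receptor 4 (-1.49 ± 0.37, adjusted p = 0.0143). Cd93, first named as a C1q receptor, had a log2 change of -0.68 ± 0.28 with DI in KO that did not pass (adjusted p = 0.145). Its interaction was 0.29 ± 0.39 (adjusted p = 0.67). It fell by 0.98 ± 0.28 log2 with DI in WT (adjusted p = 0.0352). Its call was lost without either untreated library of each genotype or WT DI replicate 2 (-1.04 to -0.57, adjusted p 0.057 to 0.163). C1qbp, a mainly mitochondrial protein that also binds the globular heads of C1q, rose in WT to 70.0 ± 1.21 CPM, against 37.0 ± 1.29 CPM untreated (adjusted p = 0.018). It had 30.2 ± 6.90 CPM in KO DI against 46.4 ± 5.19 CPM in untreated KO cells (SD, n = 2 each). The C3b receptor gene Vsig4 had 1 and 1 counts in KO DI against 7 and 19 counts in WT DI libraries. The ratio was 0.0684, with a 95% counting interval of 0.00786 to 0.273 (edgeR adjusted p = 0.0194). Vsig4 passed the filter on low counts only through its WT libraries, so the direction of its call was partly fixed by the filter. It had 0 counts in both untreated KO libraries against 20 and 15 in untreated WT libraries, a comparison that did not pass the test (edgeR adjusted p = 0.0817). With a floor of 3 counts over the KO group, Vsig4 was 6.47-fold lower there. That value takes the WT level as exact and is no lower bound. Without WT untreated replicate 1 the Itgam call was lost (-0.91, adjusted p = 0.0731), as was that of Itgb2 in WT without either untreated WT library or WT DI replicate 2 (0.73 to 0.90, adjusted p 0.0727 to 0.0959). The C1qbp call in WT was lost without any WT library (0.88 to 0.96, adjusted p 0.0503 to 0.107), that of Itgax without KO DI replicate 1 (-1.16, adjusted p = 0.105), and that of Vsig4 without either KO DI library or WT DI replicate 2 (adjusted p 0.0866 to 0.117).

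**Figure D4:**
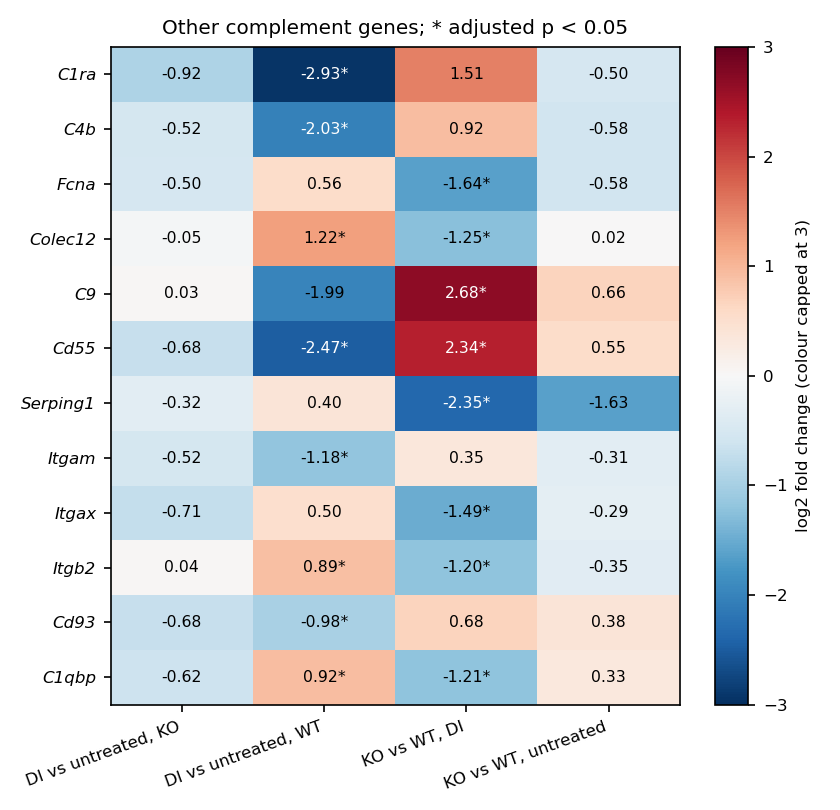
Log2 fold change of further complement genes, each called in at least 1 comparison (rows, ordered as components, regulators and receptors), in 4 comparisons (columns). Not every called gene is drawn, and Vsig4 is left out. Asterisks mark edgeR's adjusted p under 0.05, as for Cd55 at -2.47 with DI in WT and 2.34 in KO against WT with DI.

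Genes with the profile most like that of the members over the 8 libraries were sought among 1867 genes of at least 10 CPM whose log2 range was at least 1. Ifi206 (r = 0.991), Cd52 (0.99), Dpysl2 (0.989), Cnp (0.977) and Gm5431 (0.977) came closest to the mean log2 CPM of the 3 C1q genes. Ifi206 itself, a gene of the interferon-inducible PYHIN family, had a group level of 6.90 in KO DI, 8.39 in untreated KO, 7.04 in WT DI and 8.16 in untreated WT cells on the log2 CPM scale. For C3 the closest were Mtr (0.97), Ccl2 (0.963), Maf (0.961), Rfc1 (0.96) and Tmem126b (0.958). Maf had a group level of 10.66 in KO DI, 11.80 in untreated KO, 9.04 in WT DI and 11.38 in untreated WT cells. For C5ar1 the highest correlation among these genes was 0.722 (Arrb1). Its own group means ran only between 857 and 932 CPM, and the filter on range had removed genes as flat as this. The search therefore cannot say whether other genes share the profile of C5ar1. These correlations are descriptions of 8 libraries that share their treatments.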

How the data were processed

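The data are raw counts of reads per Ensembl gene in 8 strand-specific 3′-end libraries (oligo-dT priming, no molecular identifier, 12 PCR cycles), per the labels' protocols. The deposited counts were made with STAR and HTSeq on mm10, per the submitters' processing notes, which also name DESeq2 and give no versions. Identifiers were matched to GENCODE M21, which named 21745 genes.

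The members and all gene lists were chosen with earlier results of these data known. Genes were filtered with filterByExpr (minimum count 10, 11079 genes) and scaled by TMM. The comparisons were tested in 1 robust quasi-likelihood fit of all 8 libraries (edgeR 4.0.16, R 4.3.3), with Benjamini-Hochberg adjustment and a threshold of 0.05. The average over genotypes, the permutation tests of C1q ratios and the removal of a trend with A-rich coding sequence (the most A in 15 bases, where oligo-dT can also anneal) were added after the data were seen. Alternatives were DESeq2 1.42.0, other scalings and filters, a replicate block, only the compared libraries and leaving out each library. Further complement genes are named where a comparison called them, except for a result that is not reported here, and the similar genes are the 5 with the highest r. The steps were tested on simulated data. Intervals on counts cover counting error only, since PCR copies cannot be told from molecules.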

Additional observations from a re-analysis of the deposited data

Results flagged for a closer look

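Of the genes described, 2 further complement genes were noted because a test of the difference between the genotypes' DI responses passed the threshold. Of the 23 further genes tested, 1 was called higher and 1 lower in this interaction. Of all tested genes, 4.96% were called higher and 2.59% lower, so calls at this rate are not particular to complement genes. For C1qbp the DI change was lower in KO than in WT by -1.54 ± 0.32 log2 (edgeR quasi-likelihood adjusted p = 0.0159). This call was lost without KO untreated replicate 2, WT untreated replicate 2 or KO DI replicate 1, where the adjusted p was 0.0514 to 0.0825. For Cd55 the DI change was higher in KO than in WT by 1.79 ± 0.50 log2 (adjusted p = 0.0474). This call was lost in 10 of 16 alternatives, in which the adjusted p reached 0.155, and the value became 1.13 without WT DI replicate 2. Both Cd55 and C1qbp kept their difference between the DI-treated genotypes under all 17 alternatives.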

How the results depend on the processing

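Of 9 calls of members in the 6 comparisons, 2 (C1qa and C1qc, averaged over genotypes) were kept under every alternative, and none of the 9 changed direction. Of the 150 alternatives of these calls, 46 lost the call, and for members not called 16 gained one. Members called with DI in WT numbered 2, and 1 under upper quartile scaling, with the replicate block or with the A-rich trend removed, 0 with only the compared libraries, and 0 to 2 with a library left out. In KO they numbered 3, and 4 under upper quartile scaling, without a filter, in DESeq2, with the replicate block or with only the compared libraries, 1 with the A-rich trend removed, and 0 to 4 with a library left out. Averaged over genotypes they numbered 3, and 5 without a filter. C3 was called there as well under upper quartile scaling (edgeR adjusted p = 0.0431) and in DESeq2 (adjusted p = 0.0331). The averaged count also moved with a library left out. For KO against WT with DI it was 1, and 0 with the A-rich trend removed or only the compared libraries, 2 in DESeq2, and 0 to 1 with a library left out. The interaction and the untreated comparison called 0 members throughout. With the A-rich trend removed, the log2 change with DI in KO was -0.62 for C1qb (edgeR adjusted p = 0.103) and -0.63 for Cfp (adjusted p = 0.0912). That of C3 in WT was -0.54 (adjusted p = 0.168). Cfp then differed by -0.52 log2 between DI-treated genotypes (adjusted p = 0.108), and by -0.73 with only the compared libraries (adjusted p = 0.0783). The causes were not tested.

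Replicate numbers do not pair the libraries: same-numbered deviations correlated at -0.0799 to 0.156 over genes. The block moved the members called to 4 in KO and changed the count in no comparison other than the DI ones of each genotype.

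Upper quartile scaling moved the median of all genes by -0.10 log2 for DI in KO and by -0.135 for the interaction, and the share of calls that were higher to 38%, against 52.9%, and to 50.5%, against 65.7%. Values near 0 changed sign. With the A-rich trend removed the log2 values were 0.049 (C1qb), 0.025 (C1qc), -0.27 (C3ar1) and 0.22 (C5ar1) for KO against WT with DI, -0.0040 (C5ar1) and -0.030 (Cfp) for the untreated comparison, and -0.057 in WT, 0.16 in KO and 0.22 for the interaction of C5ar1. Under upper quartile scaling they were -0.029 for the interaction of C1qa, -0.044 for C3ar1 in KO against WT with DI, -0.036 for C5ar1 averaged over genotypes and 0.015 for Cfp with DI in WT. The block gave -0.017 for C3ar1 in KO against WT with DI, and a minimum count of 30 gave -0.0078 for C5ar1 averaged. With a library left out, C1qa ran between -0.17 and 0.38 (interaction), -0.058 and 0.17 (KO against WT, untreated) and -0.11 and 0.44 (with DI). C1qc ran between -0.43 and 0.034 and C3ar1 between -0.53 and 0.41 in KO against WT with DI, and C3ar1 between -0.77 and 0.17 for the interaction. C5ar1 ran between -0.078 and 0.28 in WT, -0.29 and 0.079 in KO, -0.098 and 0.096 averaged, -0.11 and 0.26 between untreated genotypes and -0.32 and 0.053 between DI-treated ones. Cfp ran between -0.096 and 0.059 with DI in WT and -0.13 and 0.14 between untreated genotypes. At these sizes a direction cannot be given, with 2 libraries a group.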
